A study of Mus musculus with 4 samples.

Results

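The guanylate-binding proteins (GBPs) and the immunity-related GTPases (IRGs) were examined in irradiated intestines of Vil-CREPT-KO and WT mice. The 10 genes were taken by symbol from the 17505 genes of the expression table, without regard to level. They are 6 GBP genes (Gbp2, Gbp3, Gbp4, Gbp5, Gbp6 and Gbp7) and 4 IRG genes (Irgm1, Irgm2, Igtp and Iigp1). The gene Rprd1b encodes CREPT, which associates with RNA polymerase II. Exon 3 of a floxed CREPT gene is removed in Vil-CREPT-KO mice by a Cre recombinase under the villin promoter, which is active in the gut epithelium, so other cells of the tissue keep the gene. The WT mice are labelled only as wildtype, and whether they carried floxed alleles is not stated for these libraries. Both groups were C57BL/6 mice that received a single abdominal dose of 10 Gy of X-rays, and tissue was taken at day 3. There were 2 libraries per group, and no unirradiated library was analysed here. The mice were 6 to 8 weeks old and of both sexes. The age, sex and animal behind each library and the segment of intestine are not given, and the study speaks of intestines in one place and of crypts in another.

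Both families are GTPases that cells make in large amounts after interferon gamma, a cytokine of T cells and NK cells. Interferon gamma binds the receptor chains Ifngr1 and Ifngr2, the kinases Jak1 and Jak2 pass the signal on, and Irf1 is among the factors that switch on the GTPase genes. GBPs assemble on the membranes of microbes and of the vacuoles that hold them, and promote inflammasome activation. IRGs fall into effectors that attack such vacuoles, among them Iigp1, and the regulators Irgm1, Irgm2 and Igtp, which sit on the cell's own membranes and keep effectors from attacking them. In the intestine, epithelial cells as well as immune cells can make them.

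The promoters of the members show a shared letter pattern. The windows below were cut from the RefSeq promoter table of GRCm38.p6, which runs from 250 bases before to 50 bases after each start site, and 7 of the 10 members had an entry. Each window is 30 bases, 5′ to 3′, and is given because it holds the words searched. Capitals mark GAAA-NN-GAAA, written here with hyphens around the spacer, a word found in elements bound by interferon regulatory factors, and in Igtp and Irgm2 also TTCNNNGAA, a palindromic word of interferon-gamma-activated elements. N is any base, both strands were searched, and matches may overlap, as in Gbp3 and Irgm1. The GBP windows are on the strand opposite to the gene, and the IRG windows are on the strand of the gene.
Gbp5, chr3:142496759-142496788: tctctaaactGAAATTGAAActacacaagt
Gbp7, chr3:142530273-142530302: atggagaactGAAACTGAAActgcacacac
Gbp3, chr3:142559992-142560021: gatctggGAAATAGAAACTGAAActgtgtc
Gbp2, chr3:142620594-142620623: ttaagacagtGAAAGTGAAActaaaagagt
Irgm1, chr11:48871428-48871457: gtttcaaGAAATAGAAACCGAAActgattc
Igtp, chr11:58199507-58199536: ccatTTCTAGGAActGAAACTGAAAgctgt
Irgm2, chr11:58214898-58214927: ccatTTCCAGGAActGAAACTGAAAgctgt
Gbp4, Gbp6 and Iigp1 had no entry.

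GAAA-NN-GAAA was present in 7 of the 7 members with an entry, against 3.44% of all 32851 promoters in the table. Among tested genes with a promoter, 4.02% held it. TTCNNNGAA was present in 4 of the 7 (Gbp5, Gbp7, Igtp and Irgm2), against 8.3% of all promoters, and 0.454% of all promoters held both words. In Gbp5 and Gbp7, TTCNNNGAA lay outside the printed windows. Gbp3 had a second listed promoter with neither word. These matches describe letters in a window and say nothing of binding in these samples. GAAA-NN-GAAA was present in Gbp5, whose levels were close in all 4 libraries, as well as in Igtp and Irgm1, whose levels differed most. The relation between the word and the levels was not tested.

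The table gives FPKM, in which fragments are divided by transcript length and by the mapped total, and genes can therefore be compared in level within a library. Steps between low values placed the depth near 16900000 to 17700000 fragments per library. With the longest protein-coding transcript as length, member values rested on about 117 fragments (Gbp4 in WT 2) to 3065 fragments (Igtp in WT 1). The counting error was then 9.2% to 1.8%, which leaves out how reads were divided between similar genes. That error was small beside the distance between the WT libraries for most members. Rprd1b had 4.01 and 3.93 FPKM in Vil-CREPT-KO libraries, against 5.99 and 7.19 FPKM in WT libraries, which did not overlap (log2 fold change -0.61, limma adjusted p = 0.129). Epithelial marker genes summed to 11146 and 8774 FPKM in Vil-CREPT-KO libraries and to 7269 and 7267 FPKM in WT libraries. Stomach and Brunner gland mucous genes summed to 27.4 and 114 FPKM in Vil-CREPT-KO libraries, against 39087 and 42425 FPKM in WT libraries, and 11 of 11 were called lower in Vil-CREPT-KO. The labels do not name gastric or proximal tissue, and the part of this difference in the results was not tested.

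Most of the members were lower in both Vil-CREPT-KO libraries than in both WT libraries, but the WT libraries lay far apart and no member passed the test. In 7 of 10 members (Gbp2, Gbp3, Gbp6, Gbp7, Irgm1, Irgm2 and Igtp) each Vil-CREPT-KO library was below each WT library, an order that 22.1% of all 11621 tested genes had. In 1 member (Gbp5) both Vil-CREPT-KO values lay above both WT values, an order of 31.9% of tested genes, and Gbp4 and Iigp1 overlapped between the groups. The median log2 fold change of the members, Vil-CREPT-KO over WT on log2(FPKM + 1), was -0.67, against 0.06 over all tested genes. With limma, a moderated linear model over all tested genes, 0 of 10 members were called lower and 0 were called higher at an adjusted p under 0.05 and a change above 1 on the log2 scale. Of all tested genes, 1.69% were called lower and 0.387% higher. At an unadjusted p under 0.05, 4 of 10 members were lower in Vil-CREPT-KO (Gbp2, Irgm1, Irgm2 and Igtp), against 10.1% of all tested genes, and in either direction 20.2% of all tested genes had such a p. Adjusted p-values of the members ran between 0.149 and 0.683. These p-values set the group difference against a variance between libraries that is partly drawn from all tested genes. With 2 against 2 libraries, an exact permutation p cannot be below 0.333. In bulk tissue, fewer cells that express a gene and less RNA per cell cannot be told apart.

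**Figure D1:**
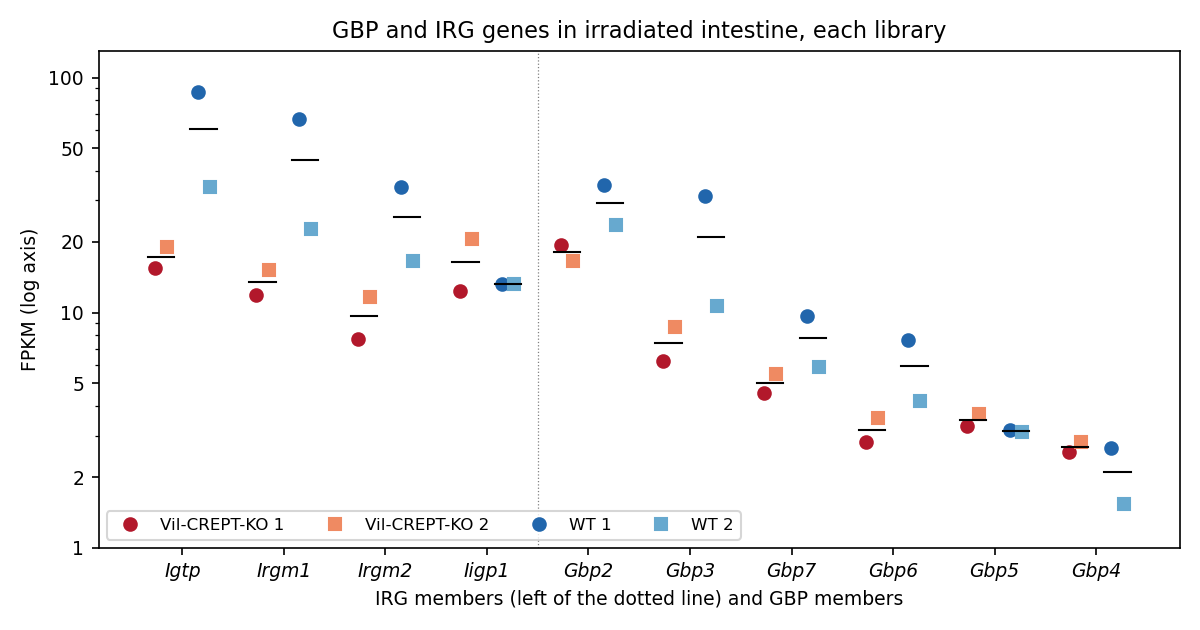
FPKM of the 10 members on a log axis, with 1 point per library (red and orange for Vil-CREPT-KO 1 and 2, dark and light blue for WT 1 and 2) and a black line at the mean of each group of 2. Igtp, Irgm1, Irgm2, Gbp2, Gbp3, Gbp7 and Gbp6 have both Vil-CREPT-KO points below both WT points and WT 1 at the top, while Iigp1, Gbp5 and Gbp4 do not.

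On the log2(FPKM + 1) scale, the regulators Igtp, Irgm1 and Irgm2 had the largest fitted differences, with Gbp3 close to Irgm2. The ratio of means was lower for Gbp3 (0.356) than for Irgm2 (0.380). Igtp, also called Irgm3, which lies on membranes of the endoplasmic reticulum and lipid droplets, had 15.5 and 19.1 FPKM in Vil-CREPT-KO libraries, against 87.1 and 34.2 FPKM in WT libraries. The Vil-CREPT-KO values were close together and the WT values differed 2.55-fold. Mean levels were 17.3 ± 2.53 FPKM in Vil-CREPT-KO and 60.7 ± 37.4 FPKM in WT (SD, n = 2 each), a ratio of 0.285. The log2 fold change was -1.61 with a standard error of 0.44 (95% interval -2.75 to -0.48, limma adjusted p = 0.149). Igtp is gene 16145, on chromosome 11 (mm10, 58199556 to 58207592).

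Irgm1, the regulator best known in mice for control of mycobacteria and for its link to autophagy, had 11.9 and 15.2 FPKM in Vil-CREPT-KO libraries, against 66.9 and 22.6 FPKM in WT libraries. WT 1 stood 2.96-fold above WT 2, and the groups did not overlap. Means were 13.5 ± 2.30 FPKM in Vil-CREPT-KO and 44.8 ± 31.3 FPKM in WT, a ratio of 0.302, and the log2 fold change was -1.47 ± 0.51 (SE, limma adjusted p = 0.207). The gene (15944) lies on chromosome 11 (48865245 to 48871420), and 0.31% of the 50-base words of its transcripts were shared with other genes.

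Irgm2, a regulator found at the Golgi membranes, had 7.73 and 11.6 FPKM in Vil-CREPT-KO libraries, against 34.4 and 16.6 FPKM in WT libraries. Its order of libraries was that of Igtp and Irgm1. Means were 9.67 ± 2.74 FPKM in Vil-CREPT-KO and 25.5 ± 12.6 FPKM in WT, with a log2 fold change of -1.25 ± 0.38 (SE, limma adjusted p = 0.171). Irgm2 (gene 54396, chromosome 11, 58214977 to 58222783) is the neighbour of Igtp, and their gene models overlap on the same strand in the GENCODE vM21 annotation. In Igtp, 11.8% of 50-base words were shared with Irgm2, so a small part of either level depends on how reads were divided between them. The 3 regulators summed to 35.1 and 45.8 FPKM in Vil-CREPT-KO libraries, against 188 and 73.4 FPKM in WT libraries.

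The effector Iigp1 (also called Irga6) had another order. It had 12.3 and 20.6 FPKM in Vil-CREPT-KO libraries, against 13.2 and 13.2 FPKM in WT libraries, so that the WT values fell between the Vil-CREPT-KO values. The log2 fold change was 0.25 ± 0.25 (SE, 95% interval -0.39 to 0.90, limma adjusted p = 0.608). It was the only IRG member in which WT 1 and WT 2 were alike. Within a library, the ratio of Igtp to Iigp1 was 1.26 and 0.927 in Vil-CREPT-KO libraries, while it was 6.60 and 2.59 in WT libraries. The same ratio for Irgm1 was 0.967 and 0.737 in Vil-CREPT-KO libraries, while it was 5.07 and 1.71 in WT libraries. For Irgm2 it was 0.627 and 0.564 in Vil-CREPT-KO libraries, while it was 2.60 and 1.25 in WT libraries. A ratio within a library does not depend on the scaling between libraries, and each of these 3 ratios was lower in both Vil-CREPT-KO libraries. The ratios restate the levels already given and were not tested. Iigp1 is gene 60440 on chromosome 18 (60373616 to 60392634).

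The GBP members split in the same way. Gbp2, which coats parasite vacuoles in mouse cells, was the most abundant of them, with 19.5 and 16.6 FPKM in Vil-CREPT-KO libraries, against 35.1 and 23.6 FPKM in WT libraries. The groups did not overlap, and Gbp2 was the member where WT 1 was highest but Vil-CREPT-KO 2, not 1, was lowest. Means were 18.0 ± 2.05 FPKM in Vil-CREPT-KO and 29.3 ± 8.09 FPKM in WT, a log2 fold change of -0.65 ± 0.23 (SE, limma adjusted p = 0.213). Gbp3 had 6.22 and 8.67 FPKM in Vil-CREPT-KO libraries, against 31.2 and 10.7 FPKM in WT libraries. Much of its difference lay in WT 1, which was 2.93-fold above WT 2. The log2 fold change of Gbp3 was -1.21 ± 0.50 (SE, 95% interval -2.48 to 0.05, limma adjusted p = 0.262).

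Gbp7, which in mice takes part in oxidative defence against bacteria, had 4.56 and 5.48 FPKM in Vil-CREPT-KO libraries, against 9.69 and 5.88 FPKM in WT libraries. The gap between the groups was narrow, since WT 2 lay close to Vil-CREPT-KO 2 (log2 fold change -0.51 ± 0.25, SE, limma adjusted p = 0.322). Of its 50-base words, 10.5% were shared with the processed pseudogene Gm43802. Gbp6 had 2.82 and 3.55 FPKM in Vil-CREPT-KO libraries, against 7.62 and 4.21 FPKM in WT libraries (log2 fold change -0.68 ± 0.28, SE, limma adjusted p = 0.258). The level of Gbp6 is uncertain, because 65.0% of its 50-base words were shared with the overlapping gene model Gm43302.

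Gbp5 and Gbp4 had the lowest means over the 4 libraries, although Gbp6 lay below Gbp5 in both Vil-CREPT-KO libraries. Gbp5, which promotes assembly of the NLRP3 inflammasome in mouse macrophages, had 3.29 and 3.70 FPKM in Vil-CREPT-KO libraries, against 3.17 and 3.12 FPKM in WT libraries. Its highest library was 1.19-fold above its lowest, the narrowest range of the 10 members (log2 fold change 0.12 ± 0.14, SE, 95% interval -0.25 to 0.48, limma adjusted p = 0.683). Gbp4 had 2.56 and 2.82 FPKM in Vil-CREPT-KO libraries, against 2.67 and 1.53 FPKM in WT libraries, and the groups overlapped (log2 fold change 0.28 ± 0.22, SE, limma adjusted p = 0.525). The ratio of Gbp3 to Gbp5 was 1.89 and 2.34 in Vil-CREPT-KO libraries, while it was 9.85 and 3.42 in WT libraries. The ratio of Gbp2 to Gbp5 was 5.92 and 4.48 in Vil-CREPT-KO libraries, while it was 11.1 and 7.57 in WT libraries. Both ratios were lower in both Vil-CREPT-KO libraries, and the difference between the genes was not tested.

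By location, Gbp5 (gene 229898, 142496934 to 142522344), Gbp7 (229900, 142530336 to 142550151), Gbp3 (55932, 142560016 to 142573213) and Gbp2 (14469, 142620663 to 142638008) form a cluster on chromosome 3. Gbp4 (17472, 105115767 to 105139586) and Gbp6 (100702, 105270702 to 105295871) belong to the cluster on chromosome 5. Both orders occurred in each cluster. On chromosome 3, Gbp2, Gbp3 and Gbp7 were lower in both Vil-CREPT-KO libraries and Gbp5 was not, and on chromosome 5, Gbp6 was lower in both and Gbp4 was not.

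**Figure D2:**
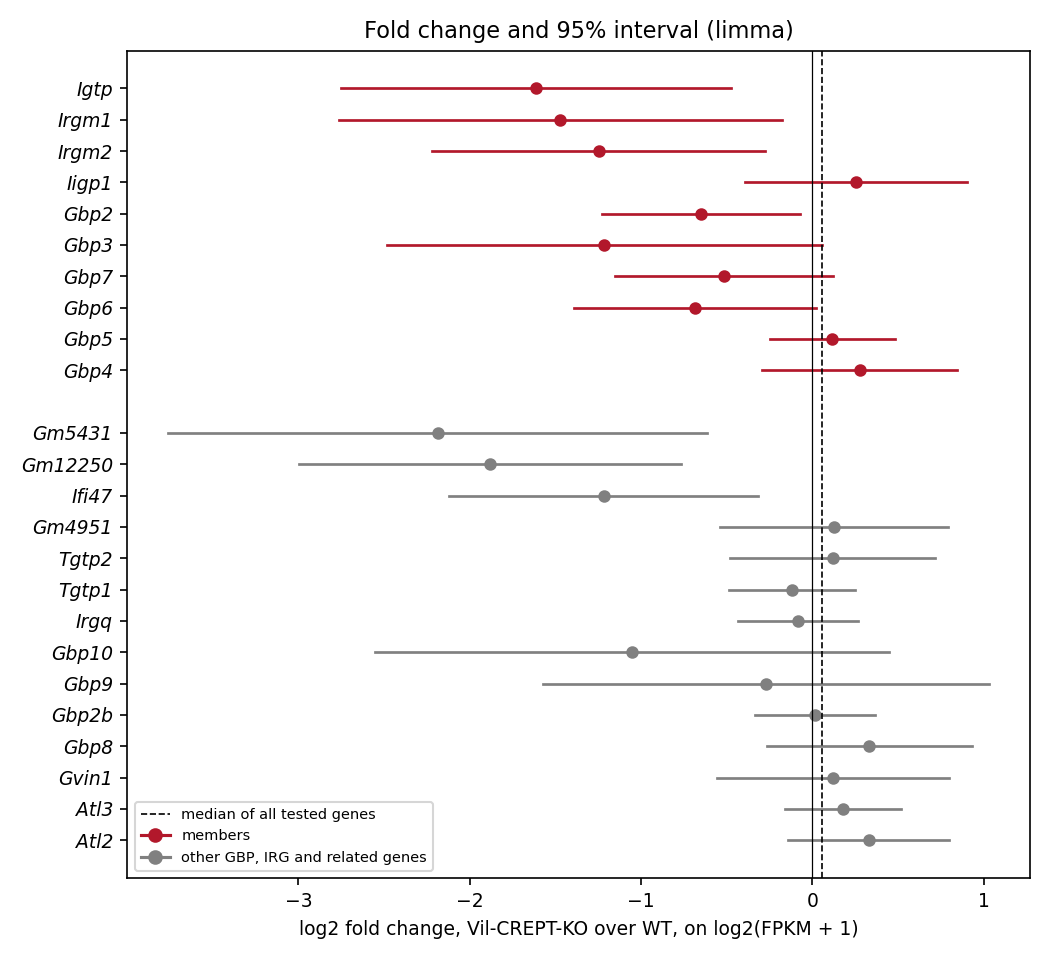
Log2 fold change of Vil-CREPT-KO over WT on log2(FPKM + 1), with the 95% interval of the limma fit, for the 10 members (red) and 14 other tested genes of the GBP, IRG and related families (grey). The dashed line is the median of all tested genes, 0.06. The intervals of Igtp, Irgm1, Irgm2 and Gbp2 lie below 0, as do those of Gm5431, Gm12250 and Ifi47, and none of these genes passed the adjusted test.

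The order of levels differed between the genotypes. In WT libraries the order of the means was Igtp, Irgm1, Gbp2, Irgm2, Gbp3, Iigp1, Gbp7, Gbp6, Gbp5 and Gbp4. The ranges of neighbours overlapped for each pair but Iigp1 over Gbp7, Gbp6 over Gbp5 and Gbp5 over Gbp4. Within each WT library the order of neighbours held, except that Gbp2 exceeded Irgm1 and Iigp1 exceeded Gbp3 in WT 2. In Vil-CREPT-KO libraries Gbp2, Igtp, Iigp1 and Irgm1 came next to each other. Neighbours among them had overlapping ranges, but the range of Irgm1 lay below those of Igtp and Gbp2. Irgm2 and Gbp3 followed, also overlapping, then Gbp7, and then Gbp5, Gbp6 and Gbp4. Iigp1 was thus among the 3 most abundant members in both Vil-CREPT-KO libraries, and ranked 6 and 5 in WT 1 and WT 2. In the ranking of all genes, Igtp was at percentile 77.0 and 80.7 in Vil-CREPT-KO libraries and at percentile 94.8 and 87.5 in WT libraries. Levels of all 10 summed to 86.4 and 107 FPKM in Vil-CREPT-KO libraries, against 291 and 136 FPKM in WT libraries.

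A large part of the differences came from 1 library. WT 1 was the highest library for 7 members, and for 1694 of all 11621 tested genes. Of these members, 6 (Igtp, Irgm1, Irgm2, Gbp3, Gbp7 and Gbp6) had the same order, WT 1, WT 2, Vil-CREPT-KO 2 and Vil-CREPT-KO 1 from high to low. Without WT 1, the log2 fold change was -0.95 for Igtp, -0.71 for Irgm1, -0.74 for Irgm2 and -0.48 for Gbp3. Without WT 2, it was -2.28 for Igtp, -2.23 for Irgm1, -1.75 for Irgm2 and -1.95 for Gbp3. Gbp2, Gbp6 and Gbp7 were at -0.38, -0.32 and -0.20 without WT 1, and at -0.93, -1.05 and -0.83 without WT 2. The direction of these 7 genes was kept, and without WT 1 the size was smaller by over 1.5 times in each. The median of the members was -0.35 without WT 1 and -0.99 without WT 2, and in each of these fits the lone WT library is assumed to vary as the other group does. Iigp1 took its direction from Vil-CREPT-KO 2, since its log2 fold change was -0.093 without that library and 0.60 without Vil-CREPT-KO 1.

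**Figure D3:**
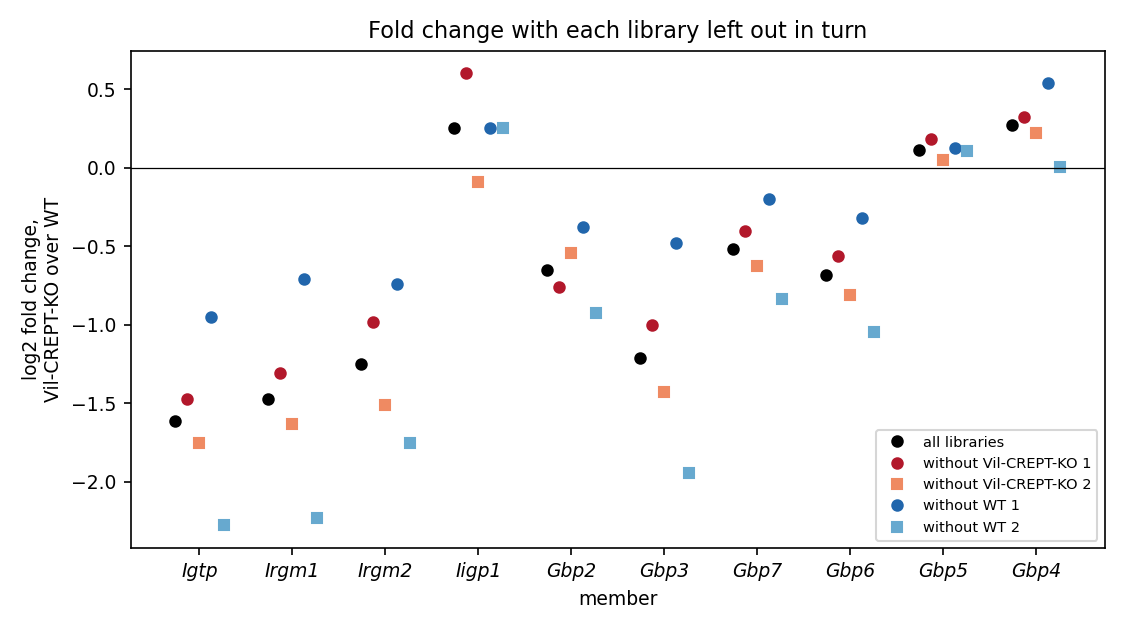
Log2 fold change of Vil-CREPT-KO over WT for each member with all libraries (black) and with each library left out in turn (red and orange for a Vil-CREPT-KO library left out, dark and light blue for a WT library left out). Igtp spans -2.28 to -0.95 and stays below 0, Gbp5 spans 0.05 to 0.18, and Iigp1 crosses 0.

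Other genes of the families were given by the same measure. Of 22 listed, 18 were in the table and 14 were tested. None was called by limma (0 of 14). An unadjusted p under 0.05 in either direction was found for 3, near the 20.2% of all tested genes. In 5 neither Vil-CREPT-KO library reached the lower WT library, against 22.1% of all tested genes. The reverse order was found in 2 (Atl2 and Atl3), against 31.9% of all tested genes. The median log2 fold change was -0.04. The IRG effectors divided, as the members had. Gm12250 (Irgb10), an effector of the mouse that also acts on bacteria, had 2.91 and 4.83 FPKM in Vil-CREPT-KO libraries, against 25.6 and 10.6 FPKM in WT libraries (log2 fold change -1.88, limma adjusted p = 0.115). Ifi47 (Irgd) had 13.3 and 15.9 FPKM in Vil-CREPT-KO libraries, against 50.4 and 24.4 FPKM in WT libraries (log2 fold change -1.22). Gm5431 had 1.45 and 1.96 FPKM in Vil-CREPT-KO libraries, against 22.6 and 5.36 FPKM in WT libraries (log2 fold change -2.19). These 3 genes had the library order of Igtp.

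The paired effector genes Tgtp1 and Tgtp2 (Irgb6), near-identical copies whose reads may be divided by estimate, had log2 fold changes of -0.12 and 0.12. Gm4951, an IRG neighbour of Iigp1, was at 0.13, and Irgq, a distant relative, at -0.09. Among GBP genes, Gbp2b was level, with 3.98 and 4.03 FPKM in Vil-CREPT-KO libraries, against 3.83 and 4.08 FPKM in WT libraries. Gbp8 had a log2 fold change of 0.33 and Gbp9 of -0.27. Gbp10, low outside WT 1, had 0.14 and 1.19 FPKM in Vil-CREPT-KO libraries, against 4.60 and 0.92 FPKM in WT libraries, a difference that rests on WT 1. The large GTPase Gvin1 had a value of 0.12, and the atlastins Atl2 and Atl3, GTPases of the endoplasmic reticulum that are related to GBPs, of 0.33 and 0.18. Gbp11, Gm12185, Irgc1 and Atl1 were below the filter of 1 FPKM on the mean.

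The ligand and its receptor did not show the order of the regulators. Ifng, the ligand, had 0.09 FPKM in library Vil-CREPT-KO 1 and was listed at 0 in the other libraries, below the filter. Ifngr1, the ligand-binding receptor chain, had 113 and 120 FPKM in Vil-CREPT-KO libraries, against 109 and 110 FPKM in WT libraries. Ifngr2, the signalling chain, had 110.41 and 113 FPKM in Vil-CREPT-KO libraries, against 86.6 and 96.8 FPKM in WT libraries. In both chains the Vil-CREPT-KO values exceeded the WT values by small amounts (log2 fold changes 0.09 and 0.28). Jak1, bound to Ifngr1, had 36.2 and 37.6 FPKM in Vil-CREPT-KO libraries, against 32.8 and 30.8 FPKM in WT libraries. Jak2, bound to Ifngr2, had 49.95 and 53.5 FPKM in Vil-CREPT-KO libraries, against 30.8 and 39.3 FPKM in WT libraries (log2 fold change 0.56, limma adjusted p = 0.176).

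Irf1, a transcription factor of the interferon response, had 70.5 and 69.7 FPKM in Vil-CREPT-KO libraries, against 92.3 and 63.3 FPKM in WT libraries, and overlapped. Socs1, the inhibitor of the kinases, had 5.40 and 4.69 FPKM in Vil-CREPT-KO libraries, against 7.51 and 4.25 FPKM in WT libraries, and overlapped too. Over the whole receptor and JAK-STAT list, 16 of 18 genes were tested and 0 were called by limma. An unadjusted p under 0.05 was found for 3, while 2 lay below WT in both libraries and 6 lay above. Over all tested genes these shares were 20.2%, 22.1% and 31.9%. The median log2 fold change was 0.09. Of the cytokines, receptors and transcription factors that induce interferon gamma, 5 of 14 were tested and 0 called by limma. An unadjusted p under 0.05 was found for 1, near the share of all tested genes. The most abundant was the cytokine Il18, which had 72.7 and 134 FPKM in Vil-CREPT-KO libraries, against 132 and 188 FPKM in WT libraries, and Il15 had a log2 fold change of -0.25.

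Further lists of interferon targets were set beside the members. Of 25 tested type I interferon targets, 0 were called by limma, 18 had an unadjusted p under 0.05, and 23 lay below WT in both Vil-CREPT-KO libraries. Over all tested genes, 20.2% had such a p and 22.1% lay below. The median log2 fold change of the type I targets was -1.39, and WT 1 was the highest library for 23. Isg15, a ubiquitin-like protein, had 44.4 and 55.0 FPKM in Vil-CREPT-KO libraries, against 507 and 132 FPKM in WT libraries. Oasl1, an inhibitor of Irf7 translation in mice, had 106 and 113 FPKM in Vil-CREPT-KO libraries, against 384 and 169 FPKM in WT libraries. Of 35 tested other targets of interferon gamma, 0 were called by limma and 5 had an unadjusted p under 0.05, which is 14.3% of them. In both libraries 16 lay below WT and 2 above (22.1% and 31.9% over all tested genes), and the median was -0.32. The antigen presentation genes B2m and H2-K1, the most abundant of these, had log2 fold changes of -0.39 and -0.16 and overlapped between the groups. WT 1 was the highest library for 27 of the 35. Over all tested genes it was the highest for 1694 of 11621. The difference between the lists was not tested.

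**Figure D4:**
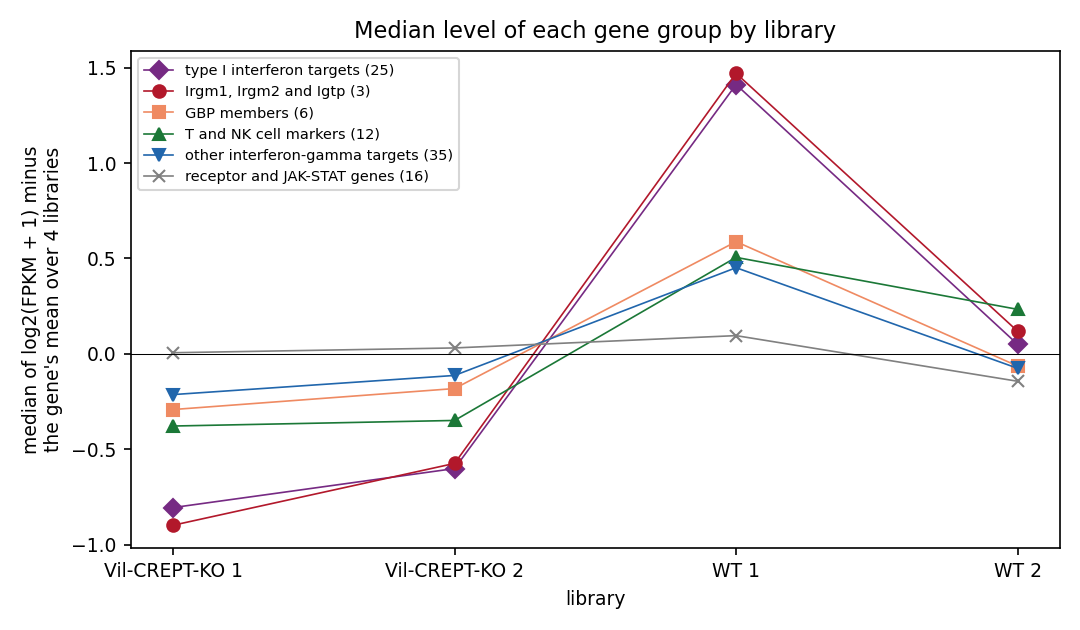
Median over each gene group of log2(FPKM + 1) minus the gene's mean over the 4 libraries, with the number of tested genes in brackets, for libraries Vil-CREPT-KO 1 and 2 and WT 1 and 2. Irgm1, Irgm2 and Igtp (red circles) are at -0.90 and -0.57 in Vil-CREPT-KO libraries and at 1.47 and 0.12 in WT libraries, next to the type I interferon targets (purple), while receptor and JAK-STAT genes (grey) stay between -0.14 and 0.10.

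The genes with the profile nearest to the members over the 4 libraries were found by Euclidean distance between a gene's centred log2(FPKM + 1) values and the mean of the members. Among 7573 other tested genes that averaged 5 FPKM or more, the 5 nearest were Tor1aip1 (distance 0.057), Ifih1 (0.11), Parp12 (0.12), Epsti1 (0.13) and Eif2ak2 (0.17). Tor1aip1 encodes a protein of the inner nuclear membrane, and Ifih1 and Eif2ak2 encode sensors of double-stranded RNA. Ifih1 had 28.7 and 31.7 FPKM in Vil-CREPT-KO libraries, against 61.6 and 35.7 FPKM in WT libraries. Of the members, Gbp6 was nearest to their own mean (0.041) and Iigp1 farthest (1.12). The 4 points of each profile share library and scaling.

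Markers of T and NK cells, which can make interferon gamma, were mostly lower in both Vil-CREPT-KO libraries. Of 12 tested genes, 11 lay below WT in both, an order of 22.1% of all tested genes. By limma 0 were called, 9 had an unadjusted p under 0.05 (20.2% of all tested genes), and the median log2 fold change was -0.70. The 4 listed genes below the filter, all under 1 FPKM, did not share this order. The 16 genes of the list summed to 78.0 and 80.9 FPKM in Vil-CREPT-KO libraries, against 182 and 137 FPKM in WT libraries, and 0 were at 0 in every library. Gzma, a granule protease, had 19.0 and 24.1 FPKM in Vil-CREPT-KO libraries, against 60.4 and 45.0 FPKM in WT libraries (log2 fold change -1.24, limma adjusted p = 0.0636), and the chemokine gene Ccl5 had a log2 fold change of -0.69. The sum of the T and NK list and the sum of the members had WT 1 highest, then WT 2. The WT sums of the list differed less than those of the members, which were 291 and 136 FPKM. The list's Vil-CREPT-KO sums were close, and its genes disagreed on their order. Gzma was higher in Vil-CREPT-KO 2, while Ccl5 had 24.4 and 19.0 FPKM in Vil-CREPT-KO 1 and 2. Genes of macrophages and dendritic cells, which also make GBPs, went the other way. In 10 of 11 genes the Vil-CREPT-KO values exceeded the WT values, an order of 31.9% of all tested genes. By limma 0 were called, and 7 had an unadjusted p under 0.05. The lowest limma adjusted p was 0.0434, for a gene whose log2 fold change of 0.99 missed the threshold. The list summed to 547 and 409 FPKM in Vil-CREPT-KO libraries, against 273 and 339 FPKM in WT libraries. Other cells shared this order, with 5 of 5 endothelial, 4 of 4 B and plasma cell and 6 of 8 epithelial genes. It was held by 4 of 8 enterocyte, 2 of 6 fibroblast and 0 of 5 smooth muscle genes. C1qa, a complement component made by macrophages, had 155 and 98.8 FPKM in Vil-CREPT-KO libraries, against 58.6 and 81.6 FPKM in WT libraries, and Lyz2, a lysozyme, had a log2 fold change of 0.30. The part of T, NK or myeloid cells in the levels of the members was not tested.

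Pancreatic acinar genes, which mark tissue next to the duodenum, summed to 20.3 and 11434 FPKM in Vil-CREPT-KO libraries, against 20884 and 7630 FPKM in WT libraries, and 0 of 12 were called. WT 1 was highest for these genes as for 7 members, and for 1694 of all 11621 tested genes. By the acinar sums Vil-CREPT-KO 2 came above WT 2, while in those 7 members both Vil-CREPT-KO libraries lay below WT 2. Duodenal genes summed to 219 and 773 FPKM in Vil-CREPT-KO libraries, against 985 and 966 FPKM in WT libraries, and the part of either list in the members' levels was not tested. Over 9 lists of other cell types, regions and housekeeping genes, the epithelial and duodenal lists included, 0 of 58 tested genes were called by limma. An unadjusted p under 0.05 was found for 16, against 20.2% of all tested genes. With each library rescaled without the stomach mucous and pancreatic genes, the median log2 fold change of the members was -0.78, and 0 of 10 were called.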

How the data were processed

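RNA was extracted with Trizol and sequenced by BGISEQ, with 2 biological replicates per genotype according to the study's methods. The authors deposited 1 table of FPKM values. Reads were mapped to reference transcripts with Bowtie2, and RSEM estimated the levels, dividing ambiguous reads between similar genes. The submitters' notes also name HISAT and mm10, with versions not given in the sources used here. FPKM is divided by the mapped total, so abundant transcripts of 1 library lower its other values.

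Genes were matched by NCBI gene ID (17473 of 17505, with 32 unmatched). The test used log2(FPKM + 1) of the 11621 genes that averaged 1 FPKM or more (5884 were below). limma 3.58.1 in R 4.3.3 compared the groups with a mean-variance trend, two-sided, with Benjamini-Hochberg adjustment over all tested genes, and was tested on simulated data. Residual degrees of freedom were 2 and prior ones 3.08. No count test was run. Shared words were counted in GENCODE vM21 transcripts.

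The members, the 19 gene lists and the naming rule were chosen with earlier results of these data known. The rule names all members and other family genes, Ifng, its receptors, Jak1, Jak2, Irf1, Socs1, Rprd1b, up to 4 called genes of each other list or else its 2 most abundant, and the 5 nearest profiles. Lists of tissues and cells other than T, NK and myeloid cells are given by sums and counts, without the genes the rule would name, and 1 further gene under the rule is not reported here.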

Additional observations from a re-analysis of the deposited data

How the results depend on the processing

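Of 157 member fold changes under the alternatives, 156 kept their side of 0 and stayed uncalled and 1 was reversed, that of Iigp1, which ran from -0.093 without Vil-CREPT-KO 2 to 0.60 without Vil-CREPT-KO 1. Members' adjusted p ran from 0.0508 (Irgm2 without Vil-CREPT-KO 2) to 0.989. The median of the members was -1.21 with a filter at 5 FPKM, which kept 7 members, and -0.67 with the replicate block. Genes called lower were 196, against 120 with a pseudocount of 5, 73 with no filter, 108 with the replicate block and 4 to 492 with a library left out. Genes called higher were 45, against 21, 5, 14 and 0 to 408 under the same settings. The cause was not tested. Same-numbered libraries deviated apart (correlation -0.26). With 2 libraries per group this cannot decide whether they were handled together, and the main fit used no pairing. A replicate block with crossed numbers, added after seeing the data, gave 254 lower and 92 higher calls.

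With 2 libraries per group, the change of Igtp was not called, and its WT libraries differed 2.55-fold. Depth was not recovered as whole reads, and log2(FPKM + 1) understates the change of low genes such as Gbp4, Gbp5 and Gbp6. The rescaling without stomach mucous and pancreatic genes was also added after seeing the data and gave 269 lower and 37 higher calls.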

Other observations

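Genes that work with GBPs and IRGs in autophagy and inflammasomes had no common direction. Of 29 listed, 27 were tested, 0 were called by limma and 3 had an unadjusted p under 0.05 (20.2% of all tested genes). In each Vil-CREPT-KO library 7 were lower and 7 were higher than in each WT library. Over all tested genes, 22.1% were lower and 31.9% higher in this way. The median log2 fold change was -0.05. Gabarap, an autophagy protein of the ATG8 family, had 482 and 424 FPKM in Vil-CREPT-KO libraries, against 398 and 449 FPKM in WT libraries. Tax1bp1, an autophagy receptor, had 223 and 254 FPKM in Vil-CREPT-KO libraries, against 257 and 247 FPKM in WT libraries. Both genes overlapped between the groups.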
